A study of Mus musculus with 6 samples.

Results

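Cell division was examined in subcutaneous white fat of the mouse, a depot of mature adipocytes, stromal cells and vessels, through 34 genes of the cell cycle. They were taken by exact name from the 36144 gene rows of the table: E2f1, Foxm1, 5 cyclins, Cdk1, the 6 MCM subunits, 4 genes of the replication clamp and nucleotide supply, and 16 genes of mitosis. All 34 were found and all 34 passed the filter on low values, 1 TPM or more in at least 3 libraries. The table holds 6 poly-A RNA libraries, 3 titled WT and 3 titled Tumor. Those titled WT carry the genotype label MSRA WT and those titled Tumor carry MSRA full-body KO, and all 6 carry the treatment label Orthotopic transplant. The design text describes hosts that received pancreatic ductal adenocarcinoma cells, with fat collected 4 to 5 weeks later, whereas the series title speaks of controls without a tumor. The sources used here give no strain, sex or age. Msra, the gene named in the genotype label, stood at 51.1, 59.1 and 56.3 TPM under the WT label and 52.9, 39.99 and 26.9 TPM under the Tumor label, a log2 difference of -0.51 ± 0.26 (SE, adjusted p by limma = 0.737), so the transcript was not absent from the libraries labelled as knockout, although Tumor replicates 2 and 3 lay below all 3 libraries labelled WT. Which part of the gene was deleted is not stated. Groups are therefore called by their titles, and a name such as WT replicate 3 stands for the library so labelled.

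A dividing cell first licenses its replication origins, then copies its DNA and finally separates its chromosomes. Factors of the E2F family switch on the genes for DNA replication, and a later wave of mitotic genes follows, driven by the MuvB complex with B-Myb and by FoxM1. In resting cells the DREAM complex holds both waves down. Promoters of mitotic genes are known for CCAAT boxes, bound by NF-Y, and for the cell cycle homology region (CHR), bound by MuvB, while promoters of replication genes are known for E2F sites. Mature adipocytes do not divide. Dividing cells in a fat pad can be progenitors, macrophages, endothelial cells or, where a lymph node lies in the pad, lymphocytes.

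The promoters of the members are shown because most of these genes were low in the same libraries. RefSeq starts on GRCm38.p6 were matched by symbol for 27 of the 34 members, all but Ccne2, Mcm4, Foxm1, Ccna2, Kif20a, Tpx2 and Aurkb. This gave 28 windows of 250 bases before the RefSeq start. The windows of E2f1 and Mcm7 lay inside the gene as annotated, and several others did so in part. All motifs were searched on both strands, and matches that overlap were counted separately. A CHR was searched as TTTGAA and, in its other form, as TTCGAA. The letters of the CCAAT box were CCAAT. An E2F site was any of 4 words, the first being TTTCCCGC. The second word searched for it was TTTCGCGC. The third word searched for it was TTTGCCGC. The last word searched for it was TTTGGCGC. At least 2 CCAAT boxes stood before 15 of the 27 members, and in 10.1% of all 32851 windows of the same length. A CHR stood before 10 members, against 17.1% of all windows, and an E2F site before 4 members, against 1.86%. By role, 3 of 5 MCM genes had an E2F match, that of Mcm7 being inside the annotated gene, and of the other roles only Cdk1 had one. Both partners of the anaphase-promoting complex, and both Mki67 and Top2a, had a CHR with at least 2 CCAAT boxes. The 120 bases that end before the start and before any annotated exon are given for 7 members, 5′ to 3′ on the strand of the gene, with matches to the 3 motifs in capitals. Top2a, Mki67, Ccnb2, Cdk1 and Cdc20 stand for the mitotic genes and Mcm6 for the replication genes. Tyms, which varied least across the libraries, had no match, and neither had Birc5, Nusap1 and Ccne1. E2f1 had none either, but its window lay inside the annotated gene, so the bases before that gene were not searched. Members without a match did not all vary little. Birc5 varied 9.38-fold, Nusap1 5.6-fold and Ccne1 5.1-fold, whereas Tyms varied 1.72-fold and E2f1 1.9-fold.
Top2a, chr11:99024190-99024309, minus strand: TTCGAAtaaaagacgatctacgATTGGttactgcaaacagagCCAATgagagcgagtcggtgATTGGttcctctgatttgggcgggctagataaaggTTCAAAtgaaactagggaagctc
Mki67, chr7:135716380-135716499, minus strand: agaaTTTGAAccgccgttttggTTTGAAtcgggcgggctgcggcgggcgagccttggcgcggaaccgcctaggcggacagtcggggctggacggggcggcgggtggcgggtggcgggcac
Ccnb2, chr9:70421555-70421674, minus strand: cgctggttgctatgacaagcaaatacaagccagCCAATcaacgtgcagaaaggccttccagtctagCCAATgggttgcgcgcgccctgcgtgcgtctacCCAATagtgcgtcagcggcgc
Cdk1, chr10:69352939-69353058, minus strand: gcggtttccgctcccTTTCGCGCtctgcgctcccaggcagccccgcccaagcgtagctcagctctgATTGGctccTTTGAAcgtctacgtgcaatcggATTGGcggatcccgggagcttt
Cdc20, chr4:118437353-118437472, minus strand: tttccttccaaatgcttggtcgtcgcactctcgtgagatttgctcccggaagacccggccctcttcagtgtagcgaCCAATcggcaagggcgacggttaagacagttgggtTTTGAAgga
Mcm6, chr1:128359706-128359825, minus strand: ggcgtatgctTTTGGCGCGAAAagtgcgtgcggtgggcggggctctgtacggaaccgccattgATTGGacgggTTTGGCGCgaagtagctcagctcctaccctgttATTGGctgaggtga
Tyms, chr5:30073626-30073745, minus strand: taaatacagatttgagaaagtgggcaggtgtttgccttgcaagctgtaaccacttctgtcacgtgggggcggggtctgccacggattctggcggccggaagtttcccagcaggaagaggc

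The libraries differed in their cell type markers within each labelled group. Cd79a, which signals for the B cell antigen receptor, read 277, 235 and 0.775 TPM under the WT label and 1.71, 449 and 712 TPM under the Tumor label. WT replicate 3 and Tumor replicate 1 thus held little B cell RNA, and the lowest of the other 4 libraries held 138 times the Cd79a of the higher of these 2. All 10 B cell markers, all 8 T cell markers and all 5 markers of lymph node stroma showed the same division. The 7 adipocyte markers, which check the tissue label, were present in every library. They summed to 13793, 16849.5 and 25259 TPM under the WT label and 20468, 14414 and 5492 TPM under the Tumor label. Each of the 7 was higher in WT replicate 3 and Tumor replicate 1 than in the other 4 libraries. The 2 libraries with little B cell RNA were thus also the richest in adipocyte RNA, and the part of either in the levels of the members was not tested. In bulk tissue, fewer cells of a type and less RNA per cell cannot be told apart. All values are TPM, a share of transcripts corrected for length, so the depth of the libraries is not given by their totals.

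Across the 6 libraries most of the cell cycle genes divided as Cd79a did. Summed over the 34 members, the level was 447, 477 and 166 TPM under the WT label and 280.2, 473 and 584 TPM under the Tumor label. Of the members, 30 were lower in both libraries with little Cd79a than in all 4 others, a pattern found in 23.4% of the 14144 genes tested. The 4 members outside it were E2f1, Foxm1, Ccne2 and Tyms. WT replicate 3 was the lowest library for 31 members (32.5% of all genes tested), and Tumor replicate 3 the highest for 21 (38.7%). Scaling by median-ratio factors gave 30 such members (27.2% of all genes tested), and upper quartiles gave 29 (24.5%). The 2 groups of libraries set by Cd79a are not groups of the study, so no test was made between them.

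**Figure D1:**
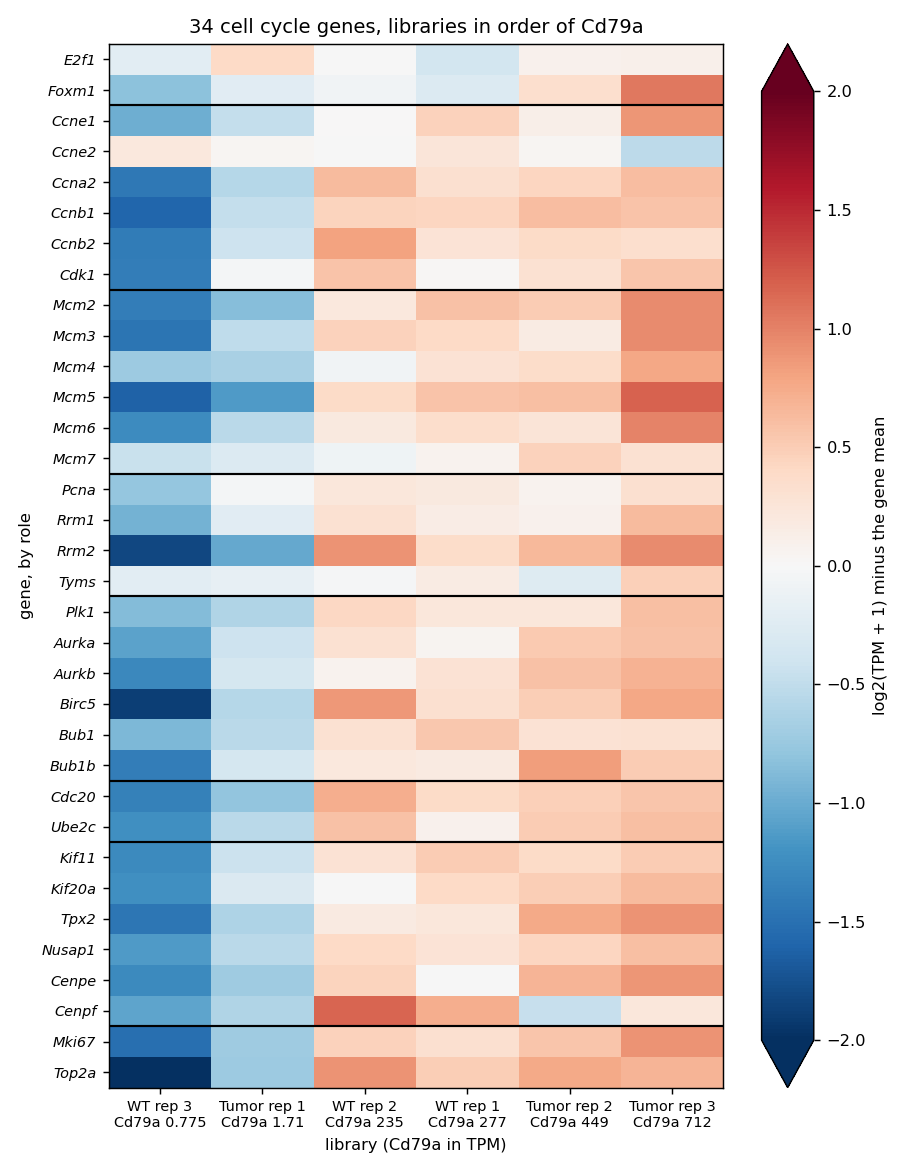
Level of each of the 34 members (rows, in blocks by role) in the 6 libraries (columns, from the lowest to the highest Cd79a), as log2(TPM + 1) minus the mean of the gene over the 6 libraries, with blue below and red above that mean. The 2 columns at the left, with Cd79a at 0.775 and 1.71 TPM, are below all 4 other columns in 30 rows, and E2f1, Foxm1, Ccne2 and Tyms are the exceptions.

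Neither transcription factor divided as Cd79a did. E2f1, which switches on replication genes (chromosome 2, 154559407 to 154569892, GRCm38, GENCODE M21), stood at 3.78, 5.15 and 4.32 TPM under the WT label and 7.17, 5.56 and 5.59 TPM under the Tumor label. Every library labelled Tumor lay above every library labelled WT, and the highest was Tumor replicate 1, one of the 2 libraries with little Cd79a. The means were 4.42 ± 0.694 and 6.11 ± 0.920 TPM (SD, n = 3), 1.38-fold apart, with a log2 difference of 0.39 ± 0.22 (SE, adjusted p by limma = 0.737) that did not pass the test. E2f1 was the 1 member of 34 without overlap between the groups, against 11.8% of all genes tested that were higher in this way. No member was lower without overlap, where 3.24% of all genes tested were. The groups of E2f1 overlapped once values were scaled. With median ratios 0 members were higher without overlap (3.88% of all genes tested) and Ccne2 was lower (6.36%). With upper quartiles 0 were higher (4.47%) and again Ccne2 was lower (5.63%). Foxm1, the driver of the mitotic wave (chromosome 6, 128362967 to 128376146), had 2.91, 3.53 and 1.68 TPM against 3.06, 4.97 and 8.91 TPM. Its means were 2.71 ± 0.943 and 5.65 ± 2.98 TPM (SD, n = 3) and its log2 difference 0.78 ± 0.41 (SE, adjusted p by limma = 0.737), the largest of the 34 members. It overlapped only through Tumor replicate 1, which lay below WT replicate 2. Foxm1 shares exon bases with Tex52 on the same strand, so some of its reads may belong to that gene.

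Of the cyclins and Cdk1, 5 of 6 followed Cd79a. Cdk1, the kinase that starts mitosis (chromosome 10, 69335146 to 69352938), stood at 12.4, 18.6 and 4.07 TPM under the WT label and 11.9, 15.3 and 18.4 TPM under the Tumor label. Tumor replicate 1 nearly reached the Cdk1 level of WT replicate 1, and the log2 difference of 0.54 ± 0.52 (SE, adjusted p by limma = 0.777) was of the size of its error. Ccnb1 and Ccnb2, the B-type partners of Cdk1, had their lowest levels at 0.661 and 1.72 TPM in WT replicate 3 and their highest at 6.65 TPM in Tumor replicate 2 and 11.5 TPM in WT replicate 2. Ccna2, the cyclin of S phase and early mitosis, ranged from 1.70 to 10.3 TPM. The pair of E-type cyclins, which act at the entry into S phase, split. Ccne1 ranged from 1.83 TPM in WT replicate 3 to 9.33 TPM in Tumor replicate 3. Ccne2 (chromosome 4, 11191351 to 11204779) ran the other way, with 2.09, 1.61 and 2.03 TPM against 1.68, 1.68 and 0.821 TPM, and was lowest in the library richest in Cd79a. Its log2 difference was -0.30 ± 0.27 (SE, adjusted p by limma = 0.767). It overlaps Ints8 on the opposite strand, as Ccna2 does Exosc9. The titles carry the words forward strand without saying how the counting used them, so reads of such pairs may not be told apart. Ccnb1 and Ccnb2 also each have a pseudogene row in the table, so their values carry that uncertainty.

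The MCM genes encode the ring-shaped helicase that unwinds DNA, and all 6 followed Cd79a. Mcm5 stood at 22.0, 19.0 and 4.03 TPM under the WT label and 6.04, 22.4 and 34.03 TPM under the Tumor label. The lowest of the 4 libraries with much Cd79a thus held 3.14 times the highest of the 2 with little, the widest gap of all members. The same gap was 2.32 for Mcm2, 1.73 for Mcm6, 1.65 for Mcm3 and 1.55 for Mcm4. It was 1.15 for Mcm7 (chromosome 5, 138164583 to 138172422), which stood at 33.3, 29.7 and 23.0 TPM against 25.96, 44.0 and 39.3 TPM. Subunits of 1 complex therefore differed in how far they varied. Mcm7 shares exon bases with Cops6 and Ap4m1 on the opposite strand and hosts Mir25 and Mir93. Mcm6, whose promoter held 3 E2F matches (chromosome 1, 128331590 to 128359664), stood at 24.0, 21.4 and 7.16 TPM against 12.4, 22.4 and 38.0 TPM. The log2 differences were 0.32 ± 0.26 (SE, adjusted p by limma = 0.75) for Mcm7 and 0.47 ± 0.57 (SE, adjusted p by limma = 0.814) for Mcm6.

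The replication clamp and nucleotide supply held both even and widely varying members, and 3 of the 4 followed Cd79a. Pcna, the sliding clamp of DNA polymerases (chromosome 2, 132249162 to 132253314), was the most abundant member per length, with 102, 104 and 51.8 TPM under the WT label and 86.5, 93.6 and 111 TPM under the Tumor label. Only WT replicate 3 stood well below the rest, and the log2 difference was 0.23 ± 0.31 (SE, adjusted p by limma = 0.825). Pcna has 2 pseudogene rows in the table and Tyms has 1, so both values are uncertain to that extent. Tyms, the thymidylate synthase, ranged from 11.0 TPM in Tumor replicate 2 to 19.0 TPM in Tumor replicate 3, the smallest range of the members at 1.72-fold. The 2 subunits of ribonucleotide reductase, which makes deoxynucleotides, differed from each other. Rrm1, the large subunit (chromosome 7, 102441695 to 102469771), stood at 20.9, 23.4 and 9.24 TPM against 15.9, 19.96 and 29.6 TPM, with a log2 difference of 0.33 ± 0.41 (SE, adjusted p by limma = 0.816). Rrm2, the small subunit made in S phase, stood at 12.1, 17.97 and 1.88 TPM against 4.04, 14.98 and 18.6 TPM. Its highest library thus held 9.88 times its lowest, whereas for Rrm1 this ratio was 3.21.

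All 6 mitotic kinase and checkpoint genes followed Cd79a. Bub1b, which encodes the checkpoint protein BubR1 (chromosome 2, 118598211 to 118641591), stood at 5.30, 5.40 and 1.12 TPM under the WT label and 3.36, 8.90 and 6.92 TPM under the Tumor label. Aurkb, the kinase of the chromosomal passenger complex (chromosome 11, 69045647 to 69051664), stood at 7.83, 6.51 and 1.94 TPM against 4.63, 9.84 and 10.7 TPM. For Bub1b and Aurkb alike, Tumor replicates 2 and 3 lay above all 3 libraries labelled WT while Tumor replicate 1 lay below WT replicates 1 and 2. The log2 differences were 0.67 ± 0.55 (SE, adjusted p by limma = 0.753) for Bub1b and 0.62 ± 0.52 (SE, adjusted p by limma = 0.753) for Aurkb. Birc5, or survivin, a partner of Aurkb in that complex, ranged from 2.18 TPM in WT replicate 3 to 20.4 TPM in WT replicate 2. Plk1, the polo-like kinase, ranged from 1.93 to 7.13 TPM, and Aurka, the kinase of spindle poles, from 1.07 to 5.52 TPM. Bub1, a checkpoint kinase, had means of 1.85 ± 1.26 and 1.78 ± 0.830 TPM (SD, n = 3).

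Cdc20 and Ube2c work with the anaphase-promoting complex, the ubiquitin ligase that ends mitosis. Cdc20, its activator (chromosome 4, 118432901 to 118437352), stood at 7.74, 10.2 and 1.63 TPM under the WT label and 2.89, 8.35 and 8.91 TPM under the Tumor label. Ube2c, its ubiquitin-conjugating enzyme (chromosome 2, 164769898 to 164778822), stood at 15.1, 21.8 and 5.48 TPM against 9.49, 20.5 and 22.0 TPM. Both genes were low in WT replicate 3 and Tumor replicate 1 and alike in the other 4 libraries. The log2 differences were 0.16 ± 0.66 (SE, adjusted p by limma = 0.940) for Cdc20, which turned to -0.02 with median-ratio factors, and 0.37 ± 0.55 (SE, adjusted p by limma = 0.839) for Ube2c. Cdc20 overlaps Elovl1 on the opposite strand. Ube2c overlaps the muscle gene Tnnc2 on the opposite strand, and the summed level of the 6 skeletal muscle markers was 19.4, 2705 and 9.57 TPM against 1761, 559 and 2243 TPM. The part of that overlap in the Ube2c values was not tested.

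All 6 spindle and kinetochore genes divided as Cd79a did, and the median of their highest over lowest library was 9.39. Tpx2, which builds spindle microtubules with Aurka (chromosome 2, 152847964 to 152895321), stood at 4.25, 4.07 and 0.644 TPM under the WT label and 1.91, 6.58 and 7.39 TPM under the Tumor label. Kif20a, a kinesin of the central spindle, stood at 4.59, 3.22 and 0.811 TPM against 2.49, 4.95 and 5.56 TPM. As for Bub1b, the 2 highest libraries of each were Tumor replicates 2 and 3. The log2 differences were 0.69 ± 0.63 (SE, adjusted p by limma = 0.769) for Tpx2 and 0.56 ± 0.50 (SE, adjusted p by limma = 0.769) for Kif20a. Kif11, the kinesin that separates spindle poles, ranged from 0.632 to 4.62 TPM, Nusap1, a microtubule bundler, from 1.03 to 5.76 TPM, and Cenpe, a kinetochore motor, from 0.312 to 4.83 TPM. Kif20a overlaps Cdc23 and Nusap1 overlaps Oip5, each on the opposite strand. Cenpf, a kinetochore protein, had the widest range of the 34, 30.7-fold, and an order of its own. It stood at 2.91, 4.33 and 0.141 TPM under the WT label and 0.571, 0.723 and 1.77 TPM under the Tumor label, so that WT replicates 1 and 2 exceeded all 3 libraries labelled Tumor. Its log2 difference of -0.55 ± 0.63 (SE, adjusted p by limma = 0.804) did not pass the test.

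Mki67 and Top2a mark dividing cells in most tissues. Mki67, the surfactant-like protein of mitotic chromosomes (chromosome 7, 135689784 to 135716361), stood at 5.24, 5.93 and 0.761 TPM under the WT label and 2.05, 6.38 and 8.32 TPM under the Tumor label. Top2a, the DNA topoisomerase that untangles chromosomes (chromosome 11, 98992943 to 99024189), stood at 22.9, 30.9 and 2.96 TPM against 9.32, 28.0 and 26.5 TPM. The group means were 3.98 ± 2.81 and 5.59 ± 3.21 TPM for Mki67 and 18.9 ± 14.4 and 21.3 ± 10.4 TPM for Top2a (SD, n = 3). In each group the SD was more than the difference between the groups. The log2 differences were 0.49 ± 0.68 (SE, adjusted p by limma = 0.831) for Mki67 and 0.48 ± 0.87 (SE, adjusted p by limma = 0.865) for Top2a, and both were negative without WT replicate 3, at -0.14 and -0.45.

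**Figure D2:**
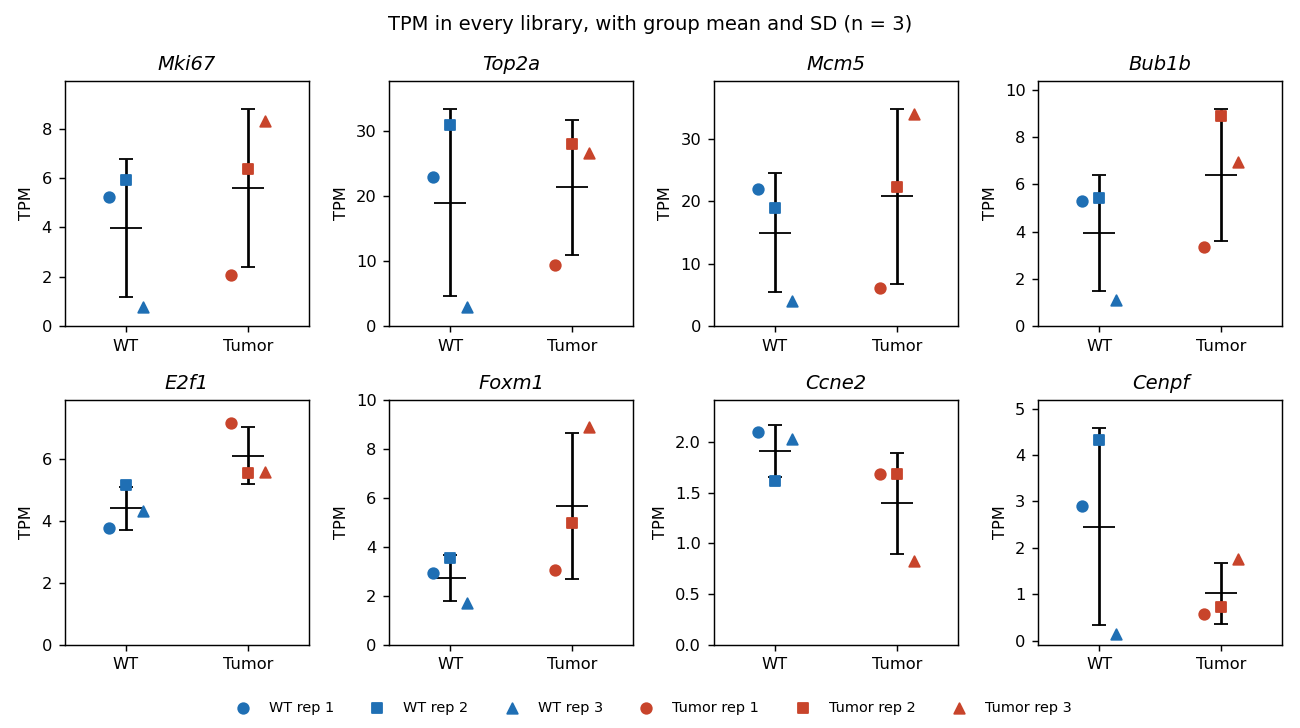
TPM (vertical axes, from 0 or below) of 8 members in the 3 libraries labelled WT (blue) and the 3 labelled Tumor (red), with the marker shape giving the replicate and the black bars the group mean and SD. The lowest point of each group is WT replicate 3 and Tumor replicate 1 for Mki67, Top2a, Mcm5, Bub1b, Foxm1 and Cenpf, whereas E2f1 separates the groups before other scaling and Ccne2 is lowest in Tumor replicate 3.

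Between the labelled groups the test called no member. Of the 34 members 0 had a limma adjusted p below 0.05, where 0% of the 14144 genes tested did, and the smallest adjusted p of a member was 0.737. Before adjustment 0 members had a p below 0.05, against 5.45% of all genes tested, and 3.75% of all genes tested were both past it and higher under the Tumor label. Log2 differences were positive for 32 members, where 76.8% of all genes tested were positive. The median of the members was 0.39 and that of all genes tested 0.23. With median-ratio factors these medians were 0.19 and 0.04, with 28 members positive, so the scaling moved both by about the same amount. Leaving out WT replicate 1, 2 or 3 gave medians of 0.66, 0.69 and -0.15, and leaving out Tumor replicate 1, 2 or 3 gave 0.74, 0.25 and 0.13. WT replicate 3 was thus the library whose removal turned the sign. The median of all genes tested stayed between 0.182 and 0.28 with 1 library left out. Entering the mean log2(TPM + 1) of the muscle markers as a covariate gave a median of -0.045, beside 0.276 for all genes tested. Entering the mean log2(TPM + 1) of the macrophage markers, a choice made after seeing the data, gave 1.07, beside 0.248 for all genes tested. Those 6 markers summed to 1751, 1503 and 1290 TPM under the WT label and 3359, 1963 and 2702 TPM under the Tumor label, and their part in the differences was not otherwise tested. Counts without overlap moved too. Without Tumor replicate 1, 14 members were higher without overlap (34.7% of all genes tested) and 0 lower (6.75%). Without WT replicate 2, E2f1 and Foxm1 were higher (14.2%) and Ccne2 lower (5.05%). Without WT replicate 3, E2f1 was higher (18.6%) and Bub1 and Cenpf lower (4.21%). For each member, an exact permutation test of 3 against 3 libraries could not go below 0.1.

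**Figure D3:**
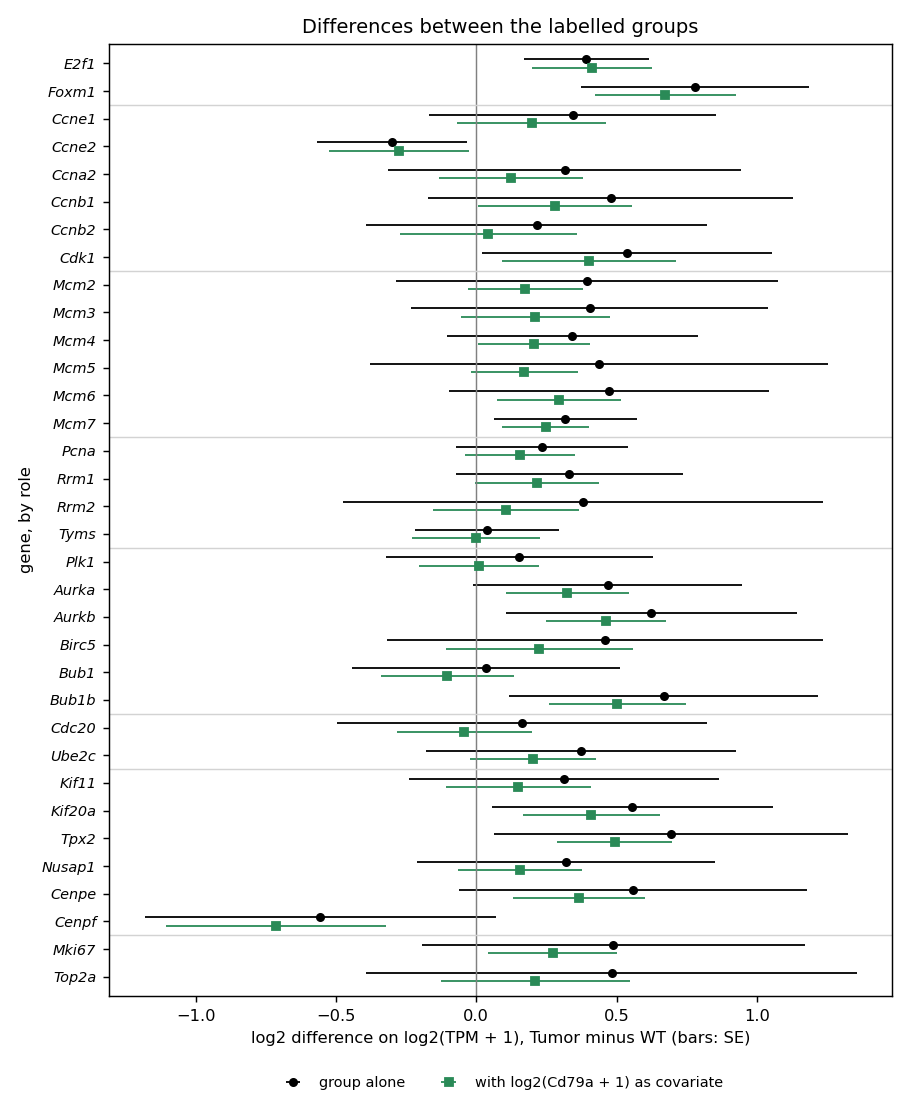
Log2 difference on the log2(TPM + 1) scale, Tumor minus WT, with its standard error (horizontal axis) for each of the 34 members (vertical axis, by role), from limma with group alone (black circles) and with log2(Cd79a + 1) as a covariate (green squares). The errors are shorter with the covariate, with a median of 0.236 against 0.551, and no member passed the test in either fit.

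With Cd79a in the fit the errors of the members were smaller, and the test still called none of them. With log2(Cd79a + 1) as a covariate the median standard error of the 34 members was 0.236, against 0.551 with group alone, while the median over all genes tested was 0.218 against 0.295. The median difference of the members was 0.21 in that fit, beside 0.21 for all genes tested, and 29 members were positive. Foxm1 had a difference of 0.67 ± 0.25 (SE, adjusted p by limma = 0.361), Bub1b 0.50 ± 0.24 (SE, adjusted p by limma = 0.392), Tpx2 0.49 ± 0.21 (SE, adjusted p by limma = 0.372) and Cenpf -0.71 ± 0.39 (SE, adjusted p by limma = 0.412). Of the members 0 passed, where 0.00707% of all genes tested did, and 2 had an unadjusted p below 0.05, where 13.4% of all genes tested did. In the 4 libraries with much Cd79a alone, 14 members were higher in both libraries labelled Tumor than in both labelled WT, against 41.6% of all genes tested, and Bub1 and Cenpf were lower, against 7.85%. The 14 included E2f1, Foxm1, Bub1b, Aurkb, Tpx2, Kif20a and Mki67.

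**Figure D4:**
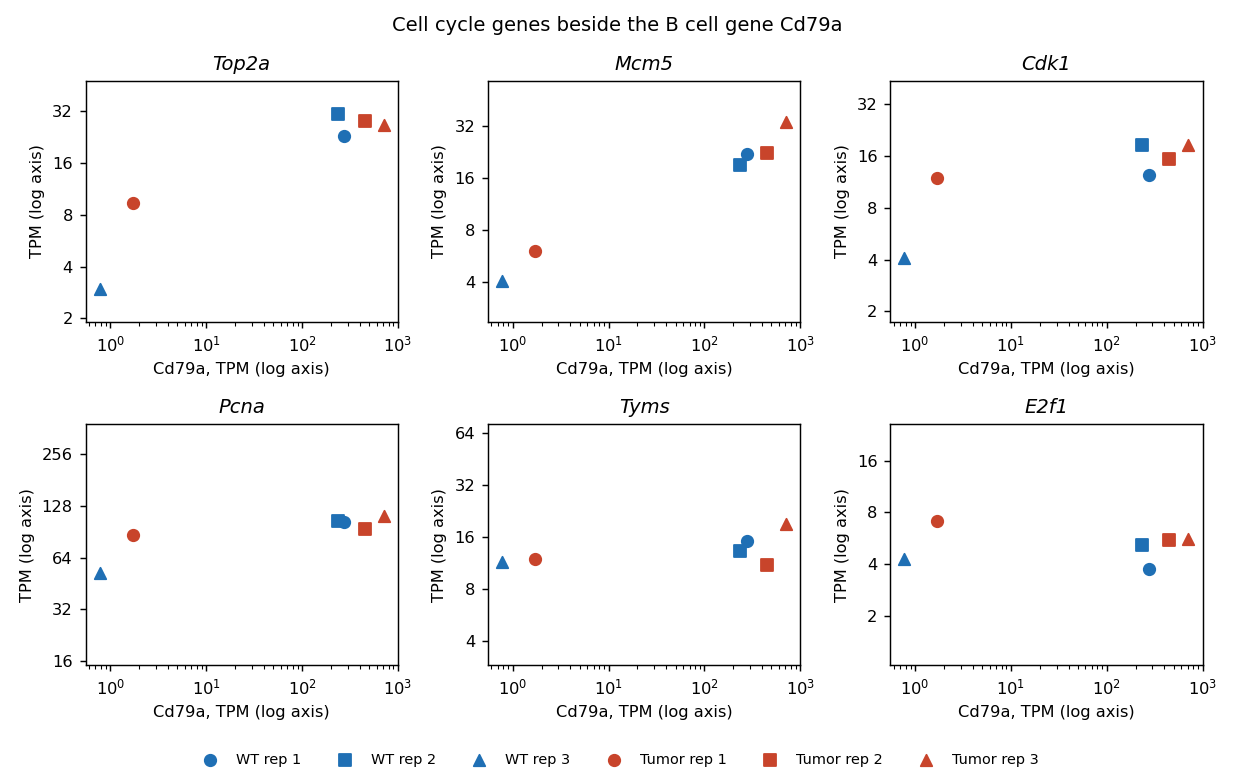
TPM of 6 members (vertical axes, log scale, each spanning the same ratio) against Cd79a (horizontal axes, TPM, log scale) in the 6 libraries, coloured by title label and shaped by replicate. Top2a and Mcm5 stand apart between the 2 libraries at the left and the 4 at the right, Cdk1 and Pcna less so, and Tyms and E2f1 overlap.

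Within the 4 libraries with much Cd79a, most members varied less than Cd79a. There Cd79a itself varied 3.03-fold, from 235 to 712 TPM, whereas the median member varied 1.55-fold and the median of all genes tested 1.80-fold. Only Foxm1, at 3.06-fold, and Cenpf, at 5.99-fold, varied more than Cd79a. The 5 MCM subunits other than Mcm7 were highest in Tumor replicate 3, the library richest in Cd79a. Top2a, Birc5, Ccna2, Ccnb2, Cdk1, Cdc20 and Cenpf were highest in WT replicate 2, which had the least Cd79a of these 4. Markers of germinal centre B cells, which divide in a lymph node, did not all divide as Cd79a did. Rgs13 stood at 0.819, 1.11 and 0 TPM under the WT label and 0.0381, 1.40 and 1.40 TPM under the Tumor label, and so was lowest in the libraries with little Cd79a. Bcl6 stood at 15.4, 16.4 and 43.1 TPM against 18.4, 35.3 and 23.0 TPM, and S1pr2 at 3.09, 2.03 and 3.27 TPM against 7.18, 3.55 and 5.01 TPM. Bcl6 was highest in WT replicate 3 and S1pr2 in Tumor replicate 1, the 2 libraries with little Cd79a.

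Members remained detectable where lymphoid RNA was scarce, and there Tumor replicate 1 exceeded WT replicate 3. In WT replicate 3 the members summed to 166 TPM although the 10 B cell markers summed to 5.34 TPM and the 8 T cell markers to 5.37 TPM. Pcna made up 51.8 of those 166 TPM and the 6 MCM genes 50.9, while Mki67 stood at 0.761 TPM. Of the 34 members 33 were higher in Tumor replicate 1 than in WT replicate 3, against 68.2% of all genes tested, and Ccne2 was the exception. The median ratio was 2.05 for the members and 1.14 for all genes tested. By role it ran from 1.54 for the MCM helicase to 3.03 for the spindle and kinetochore, with Ccnb1 at 3.91 and Cenpf at 4.05. This sets 1 library beside 1 other, so it has no replicate check. The 6 macrophage markers summed to 3359 TPM in Tumor replicate 1 and to 1290 TPM in WT replicate 3, all 6 being higher in the former, and the 6 adipocyte progenitor markers to 1429 and 989.9 TPM, again with all 6 higher. Skeletal muscle markers summed to 1761 and 9.57 TPM. T and B cell markers, though scarce in both, were mostly higher in Tumor replicate 1 too. The T cell markers summed to 13.3 and 5.37 TPM, with 8 of 8 higher and a median ratio of 3.63, and the B cell markers to 11.8 and 5.34 TPM, with 7 of 10 higher and a median ratio of 2.69. The markers of lymph node stroma summed to 54.4 and 42.4 TPM, with only 2 of 5 higher. The part of these cell types in the ratio of the members was not tested.

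**Figure D5:**
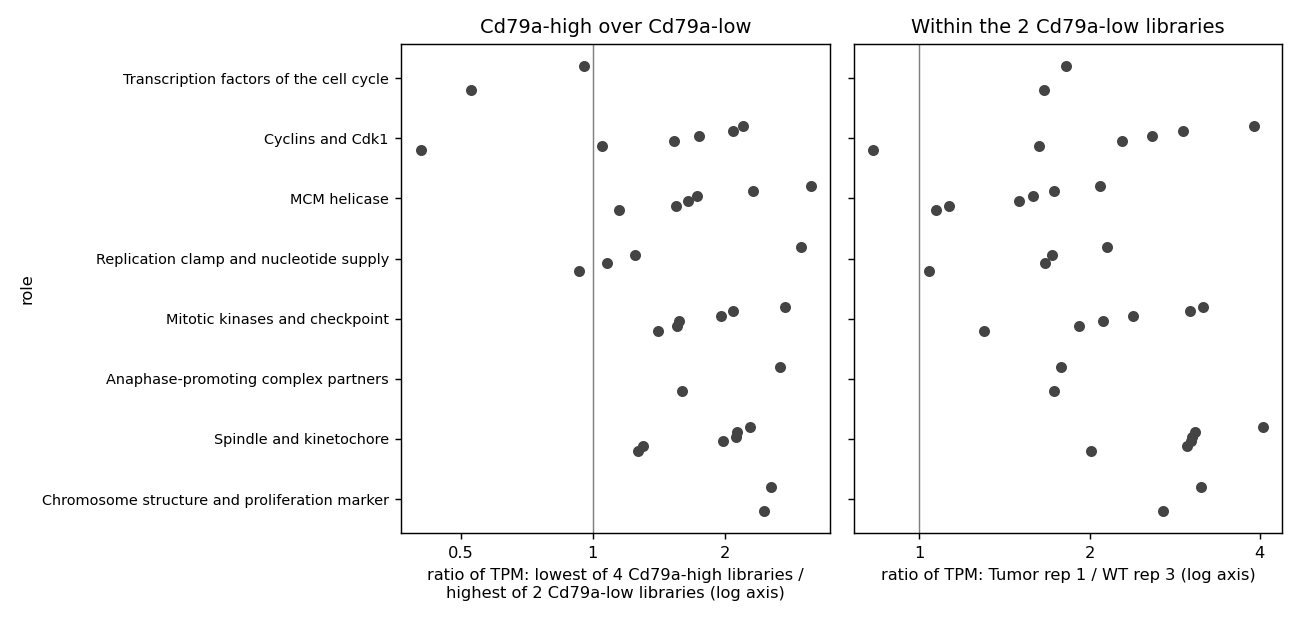
Ratios of TPM for the 34 members (points) by role (vertical axis), on log axes, with a line at 1: at the left the lowest of the 4 libraries with much Cd79a over the highest of the 2 with little, at the right Tumor replicate 1 over WT replicate 3. At the left 30 points lie above 1 and reach 3.14 for Mcm5, and at the right 33 points lie above 1.

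The other genes of the cell cycle were read from 4 further lists with 125 genes. Among other mitotic genes, 36 of 46 tested were lower in both libraries with little Cd79a than in the other 4, and among other DNA replication genes 32 of 39, against 23.4% of all genes tested. Cdt1, which loads the MCM ring, was among them with 15.2, 12.7 and 1.47 TPM against 4.68, 15.05 and 24.6 TPM. Among G1 cyclins, kinases and the retinoblastoma family 7 of 21 showed the pattern, and among Cdk inhibitors and p53 targets 5 of 14. Pttg1, or securin, did not, and stood between 56.4 and 69.8 TPM in all 6 libraries. The inhibitors did not move together. Cdkn1a was highest in the 2 libraries with little Cd79a, at 52.6 and 49.0 TPM, and between 29.3 and 39.5 TPM in the other 4. Cdkn1c and Cdkn2c were likewise highest in these 2 libraries. Cdkn1b, Cdkn2a and Cdkn2d were lowest in them, with Cdkn1b at 26.4 and 29.6 TPM against 34.7 TPM or more. Cdkn2b overlapped. Between the labelled groups 0 genes of these 4 lists passed the limma test in either direction. The median log2 differences were 0.30 for the G1 list, 0.30 for the inhibitors, 0.24 for replication and 0.35 for mitosis, and 0.11, 0.08, 0.05 and 0.20 with median-ratio factors. The smallest p in each list belonged to Cdk4, a G1 kinase, with means of 130 and 172 TPM, to Mdm2, the ligase of p53, with 33.1 and 42.8 TPM, to Tipin, a replication fork protein, with 19.4 and 27.2 TPM, and to Dlgap5, a spindle protein, with 2.51 and 5.34 TPM. Their limma adjusted p was 0.737 in each case. Next in order were Rbl2 at 20.6 and 28.6 TPM and E2f3 at 3.39 and 4.96, Gadd45a at 9.89 and 13.3 and Cdkn1b at 34.5 and 44.5, Tk1 at 10.5 and 21.5 and Gins1 at 7.91 and 5.53, and Ect2 at 1.26 and 2.56 and Cdca2 at 1.30 and 2.16 TPM, each first for the libraries labelled WT.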

How the data were processed

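Per the labels' protocols, poly-A RNA with an integrity number above 7 was made into TruSeq libraries, and the submitters' processing notes name GRCm38.p6 and DESeq2 without a role. Aligner and counting tool, not given in the sources used here, could not be checked. The authors deposited 1 table, named as raw counts, whose values are TPM: they are not whole and each column sums to 1000000. Of its rows 26 are named as spreadsheet dates. For genes with 1 transcript over 1 kb, TPM multiplied by the length less 165 nt fell within 0.15 of whole multiples of a step for 82.8% to 84.2% of low values. On that estimate 3 fragments at 1 kb were worth 0.116 to 0.154 TPM, and the weakest member value, Bub1 in WT replicate 3, rested on about 35.9 fragments. These cover counting error only.

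Values were tested as log2(TPM + 1) by limma 3.58.1 (R 4.3.3) with trend and robust moderation, group alone, 14144 genes at 1 TPM or more in at least 3 libraries, Benjamini-Hochberg adjustment over all of them and a threshold of 0.05. Fold changes on this scale understate low genes. The procedure was tested on simulated data. Alternatives changed the pseudocount, the filter, the scaling, the covariates and the libraries used. The members, lists and tests were chosen with earlier results of these data known. Mki67, Top2a, E2f1, Foxm1 and the 2 members of each other role with the smallest p have full statistics, and each further list names its 3 smallest p. Cenpf, given with its statistics for its wide range, and Cdt1, Pttg1, Cdkn1a with the other Cdkn genes, Rgs13, Bcl6 and S1pr2 were chosen after seeing their values. The labels call the replicates biological without tying them to mice, so p-values measure the spread between these libraries. The library identifiers of the groups come from separate number ranges, so a batch and the group cannot be told apart. Python 3.11.15, pandas 2.3.3, numpy 2.4.6 and matplotlib 3.10.9 made the summaries and figures.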

Additional observations from a re-analysis of the deposited data

How the results depend on the processing

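No member passed the limma test under any of the alternatives run, which were pseudocounts of 0.1 and 0.5, no filter and a filter at 5 TPM, median-ratio and upper-quartile factors, no robust moderation, no trend, the replicate block, covariates for Cd79a and for the B cell, adipocyte, skeletal muscle and, added after seeing the data, macrophage lists, each library left out, and the 4 libraries with much Cd79a. The count of all genes called was 0 throughout except for 1 with the Cd79a covariate and 1 with the B cell list covariate. The median difference of the members lay between -0.15 and 0.74 with 1 library omitted in turn. Otherwise it ran from -0.045 (skeletal muscle covariate) to 1.07 (macrophage covariate), where the median of all genes tested was 0.276 and 0.248. Members without overlap, 1 higher and 0 lower, became 0 higher and 1 lower (Ccne2) with median-ratio factors (3.88% and 6.36% of all genes tested), again 0 and 1 with upper-quartile factors (4.47% and 5.63%), and 14 higher and 2 lower without the 2 libraries lowest in Cd79a (41.6% and 7.85%). With each library left out they ran from 1 to 14 higher and from 0 to 2 lower, the 14 without Tumor replicate 1, where 34.7% of all genes tested were higher in this way. Fewer libraries make separation easier by construction.

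Of 332 values of the 16 members with full statistics, 24 changed sign and 0 passed. With the skeletal muscle covariate Mki67 stood at -0.053, Top2a at -0.36, Cdk1 at -0.12, Rrm1 at -0.073, Pcna at -0.056, Ube2c at -0.20 and Cdc20 at -0.43. The cause was not tested. Cdc20 was also -0.022 with median-ratio factors, -0.0025 with upper-quartile factors, -0.042 with the Cd79a covariate, -0.084 with the B cell covariate, -0.14 with the adipocyte covariate and -0.037 in the 4 libraries, where Pcna was -0.014. With each library left out, the ranges were -0.14 to 0.97 for Mki67, -0.45 to 1.05 for Top2a, -0.022 to 0.95 for Cdk1, -0.039 to 0.86 for Mcm6, -0.0598 to 0.56 for Rrm1, -0.093 to 0.40 for Pcna, -0.15 to 0.76 for Ube2c and -0.47 to 0.60 for Cdc20. The replicate block gave 0 calls and a median of 0.39 for the members. Deviations of libraries with the same number correlated at -0.758, 0.205 and -0.843 across genes. The highest correlation, 0.853, was between WT replicate 3 and Tumor replicate 1, the libraries with little Cd79a. Such values cannot show whether libraries with the same number shared a day or a batch, so pairing was not settled.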
